A study of Mus musculus with 9 samples.

Results

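The 118 genes described here are the cytosolic ribosomal protein genes and their named copies, out of 13336 genes in the deposited table. They were chosen by symbol, as every gene named Rpl, Rps or Rplp followed by a digit except the Rps6k kinases, together with Rpsa and the gene models Gm10260, Gm11361 and Gm12191. The set holds 77 parent genes, of which 31 encode proteins of the small ribosomal subunit (Rps and Rpsa) and 46 proteins of the large subunit (Rpl and Rplp). It also holds 33 copies, named with a -ps suffix or a Gm number, and 7 paralogs or retrotransposed genes with symbols of their own (Rps4l, Rps27l, Rpl7l1, Rpl22l1, Rpl36al, Rps27rt and Rpl37rt). The pattern also takes 1 gene that is not a ribosomal protein, Rps19bp1, which encodes a protein that binds RPS19 (43.5 ± 11.4 against 30.2 ± 7.02 TPM, limma adjusted p 0.17). It is counted apart.

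Cytosolic ribosomes read messenger RNA into protein, and each subunit is built from ribosomal RNA and one copy of most of its proteins. The transcripts of these proteins are among the most abundant in growing cells and carry a 5' terminal oligopyrimidine tract, through which their translation is controlled together. Their spliced messenger RNAs have often been copied back into the mouse genome as intronless processed copies. Such copies can differ from the parent transcript by few bases or none, so that short reads from a parent and from a copy may be impossible to assign.

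The study asked what overexpression of Lef-1, a transcription factor of the Wnt pathway, does to expanded myoepithelial cells (MECs), contractile cells that surround airway glands. Stranded TruSeq mRNA libraries were made from primary tracheal gland cells, each culture pooled from 3 to 5 mice given tamoxifen on 5 days, and grown to passage 1 with 10 µM Y-27632 and with DMH-1, A83-01 and CHIR 99021 at 1 µM each. The 5 Lef1KI libraries come from ACTA2-CreERT2:Lef-1KI+/+ cultures and hold GFP- cells. The 4 WT libraries come from ACTA2-CreERT2:ROSA-TG cultures and hold GFP+ cells. ACTA2, the smooth muscle actin gene, drives the tamoxifen-inducible Cre in both groups, and all 9 libraries share the treatments, so the WT group is not untreated. The sort gate and the genotype change together and cannot be told apart, and neither line's genetic background is stated in the sources used here. Libraries are named by the letters in the deposited table (Lef1KI A to E and WT A, B, E and D), which match no replicate number in the labels, and no label says whether the pools share animals, so p-values measure only the spread between these libraries.

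All values are TPM, a gene's share of all transcripts in a library scaled to 1000000, and a difference is the Lef1KI mean less the WT mean of log2(TPM + 1), on which changes of low genes come out too small. A change was called where limma's adjusted p was under 0.05. TPM keeps no read depth, so the depth of each library is unknown and no counting interval is given. Lef1 itself was at 227 ± 79.8 TPM (SD, n = 5) in Lef1KI and 0.448 ± 0.0763 TPM (n = 4) in WT. The basal markers Krt5 (8586 ± 829.4 against 7008 ± 2442 TPM) and Krt14 (7217 ± 457 against 6258 ± 362 TPM) were high in both groups. Acta2 lay at 62.3 ± 31.2 against 129 ± 41.0 TPM and overlapped (limma adjusted p 0.0834). Myh11, a smooth muscle myosin, was below 1 TPM on average in both. Of the 8 basal and myoepithelial markers measured, 6 had a positive and 2 a negative difference, and 0 were called.

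A few copies and their parents carry the results that passed the test, and their sequences show how little separates them. In the GENCODE M21 transcripts (mm10), Gm10260 (chr13:97760072-97760632, minus strand) aligned to Rps18 (chr17:33951999-33956001, minus strand) over 545 bases with 5 differences, and Rps18-ps3 (chr8:107262793-107263248, minus strand) differed from it by 3 bases. The row named Gm11361 carries an ID that M21 gives to another model, Gm6436 (chr13:61710587-61711371, minus strand), which differs from Rps18 by 25 bases, gaps included, and M21 gives the symbol Gm11361 to a different ID. Both of those models are copies of Rps18, so the family is the same whichever is meant. The stretch below covers coding positions 325 to 380 of Rps18, counted from 1 at its first coding base. Capitals mark in Rps18 the base that all 3 copies change, and in each copy the bases that differ from Rps18.
Rps18: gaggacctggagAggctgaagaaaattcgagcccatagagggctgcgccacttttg
Gm10260: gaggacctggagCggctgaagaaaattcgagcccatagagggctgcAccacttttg
Rps18-ps3: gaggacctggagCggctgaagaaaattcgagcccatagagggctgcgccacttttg
Gm11361: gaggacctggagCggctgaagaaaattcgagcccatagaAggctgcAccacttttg
All 3 copies hold A337C, and Gm10260 and Gm11361 also share G371A. Of the 10 other Rps18-like models of M21 that aligned over this position with at least 90% identity, 8 have the same base as these copies and 2 have T.

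Gm12191 (chr11:49678710-49679057, minus strand) differs from Rpl30 by 1 base, G96A, over all its 348 bases. Coding positions 76 to 116 are shown, with that base in capitals.
Rpl30: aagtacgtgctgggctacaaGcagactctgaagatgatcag
Gm12191: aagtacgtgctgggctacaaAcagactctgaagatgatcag
Rpl3-ps1 (chrX:13202571-13203780, plus strand) differs from Rpl3 (chr15:80077791-80091868, minus strand) by 2 bases, C57A and T786C, over 1210 aligned bases. Coding positions 37 to 77 and 766 to 806 are shown, with those bases in capitals.
Rpl3, first stretch: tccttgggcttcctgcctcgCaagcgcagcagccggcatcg
Rpl3-ps1, first stretch: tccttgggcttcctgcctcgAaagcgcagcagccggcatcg
Rpl3, second stretch: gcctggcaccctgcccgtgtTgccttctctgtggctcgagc
Rpl3-ps1, second stretch: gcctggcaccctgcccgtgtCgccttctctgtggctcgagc

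Ribosomal protein transcripts were a smaller share of the Lef1KI libraries. The 77 parent genes together made up 22.0%, 20.8%, 17.2%, 20.4% and 18.6% of all TPM in Lef1KI A to E, and 25.2%, 23.8%, 23.4% and 22.4% in WT A, B, E and D. Every Lef1KI library lay below every WT library, with means of 19.8 ± 1.89% (n = 5) and 23.7 ± 1.16% (n = 4) and a log2 ratio of the summed TPM of -0.26. The 33 copies held 2.50 ± 0.377% against 2.64 ± 0.134% and overlapped between the groups, as did the 7 paralogs at 0.272 ± 0.0156% against 0.267 ± 0.0216%. With all 3 kinds summed the libraries overlapped, since Lef1KI A (25.3%) lay just above WT D (25.2%). These sums are described without a test.

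**Figure D1:**
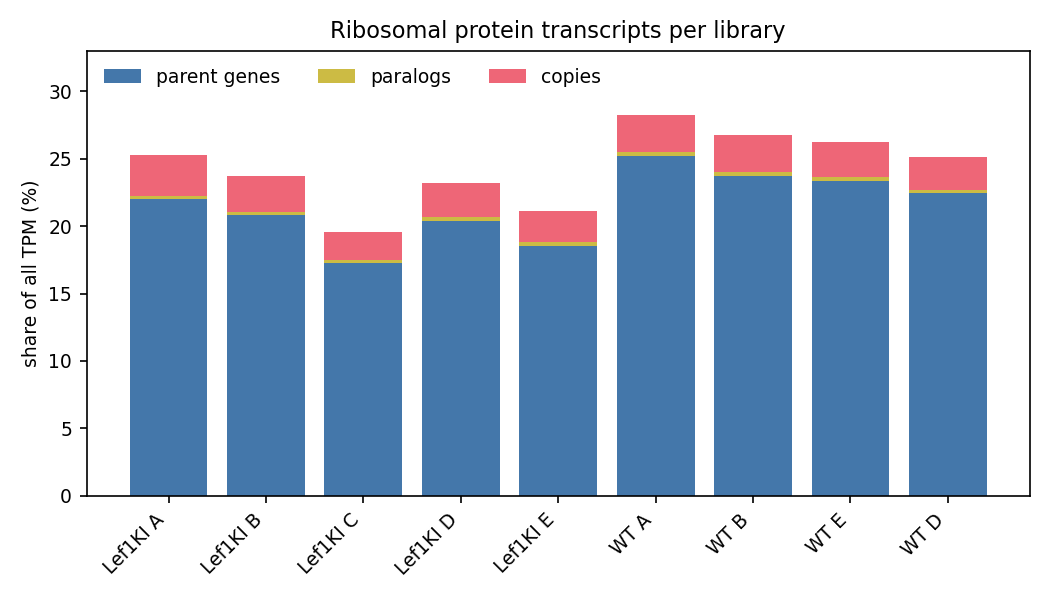
Share of all TPM, in percent, of the 77 parent genes, the 7 paralogs and the 33 copies in each of the 5 Lef1KI and 4 WT libraries, stacked. The parent genes reach at most 22.0% in Lef1KI (library A) and at least 22.4% in WT (library D), so that layer does not overlap between the groups. The full bars do overlap, with Lef1KI A at 25.26% and WT D at 25.15%.

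The difference was shared by nearly all parent genes and was small in each. Of the 77, 72 had a negative difference, where 30.3% of all genes did, and their median was -0.27 (middle 50% of the genes between -0.31 and -0.19), where the median of all genes was 0.14. In 34 of them every Lef1KI library lay below every WT library, a pattern that 1.89% of all genes showed. At an unadjusted p under 0.05, 37 were lower, against 5.05% of all genes. After adjustment over all genes 4 parents passed, where 7.97% of all genes did: 3 as lower, against 1.24% of all genes, and 1 as higher, against 6.73%. Since TPM has a fixed total, a lower share of one set of genes is a higher share of the others, and in bulk RNA fewer cells of a type and less RNA per cell cannot be told apart. With each library centred on its median over all genes, the parents' median became -0.43 and that of all genes -0.02, and 51 parents were lower at an unadjusted p under 0.05, against 11.5% of all genes on that scale.

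The small subunit proteins all leaned the same way: 31 of 31 had a negative difference (median -0.26, from -0.94 to -0.12), and 18 had groups that did not overlap. Among the 46 large subunit genes 41 were negative (median -0.27) and 16 did not overlap on the low side. Of all genes, 1.89% lay without overlap on that side. A parent was taken to have no copy in the table where no other row, member or not, matched its transcript over at least 80% of the copy's length with at least 95% identity. The 32 such parents were all negative too, with a median of -0.26, and 14 of them were without overlap. By limma 13 were lower at an unadjusted p under 0.05, against 5.05% of all genes. After adjustment 0 passed the threshold, where 7.97% of all genes did.

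The most abundant parents show the size of the difference. Rplp1, an acidic protein of the ribosomal stalk that recruits translation factors, was the highest, at 10113, 9559, 8519, 9492 and 8994 TPM in Lef1KI A to E against 12692, 10848, 10778 and 10699 TPM in WT A, B, E and D. All Lef1KI libraries were below all WT libraries, and the difference of -0.27 ± 0.13 (SE) did not pass the test (limma adjusted p 0.236). Rps12, near the head of the small subunit, gave 5255 ± 446 against 6676 ± 558 TPM, also without overlap (-0.35, adjusted p 0.121). It has a copy without a differing base, Rps12-ps3, so its row alone is uncertain. The Rps12 family sum was 8838 ± 754 against 10680 ± 911 TPM, still without overlap but with a smaller difference (-0.27, adjusted p 0.234). Rps2, which lines the channel where messenger RNA enters, gave 6362 ± 556 against 7143 ± 1529 TPM and overlapped (-0.15, adjusted p 0.583), with WT A at 9311 and the other WT libraries between 5888 and 7082 TPM. Rps7, at 812 to 1025 TPM in Lef1KI and 1077 to 1613 TPM in WT, did not pass on the deposited scale (-0.47 ± 0.14, adjusted p 0.0631) but passed with median centring (-0.63, adjusted p 0.0274). A row outside the members, Gm6472, matches Rps7 with 4 differing bases and was at 1349 ± 275 against 1286 ± 704 TPM, lowest in WT D (412 TPM), where Rps7 was highest. Summed with it, the Rps7 family overlapped between the groups at 2278 ± 240 against 2584 ± 471 TPM (-0.17, adjusted p 0.49).

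**Figure D2:**
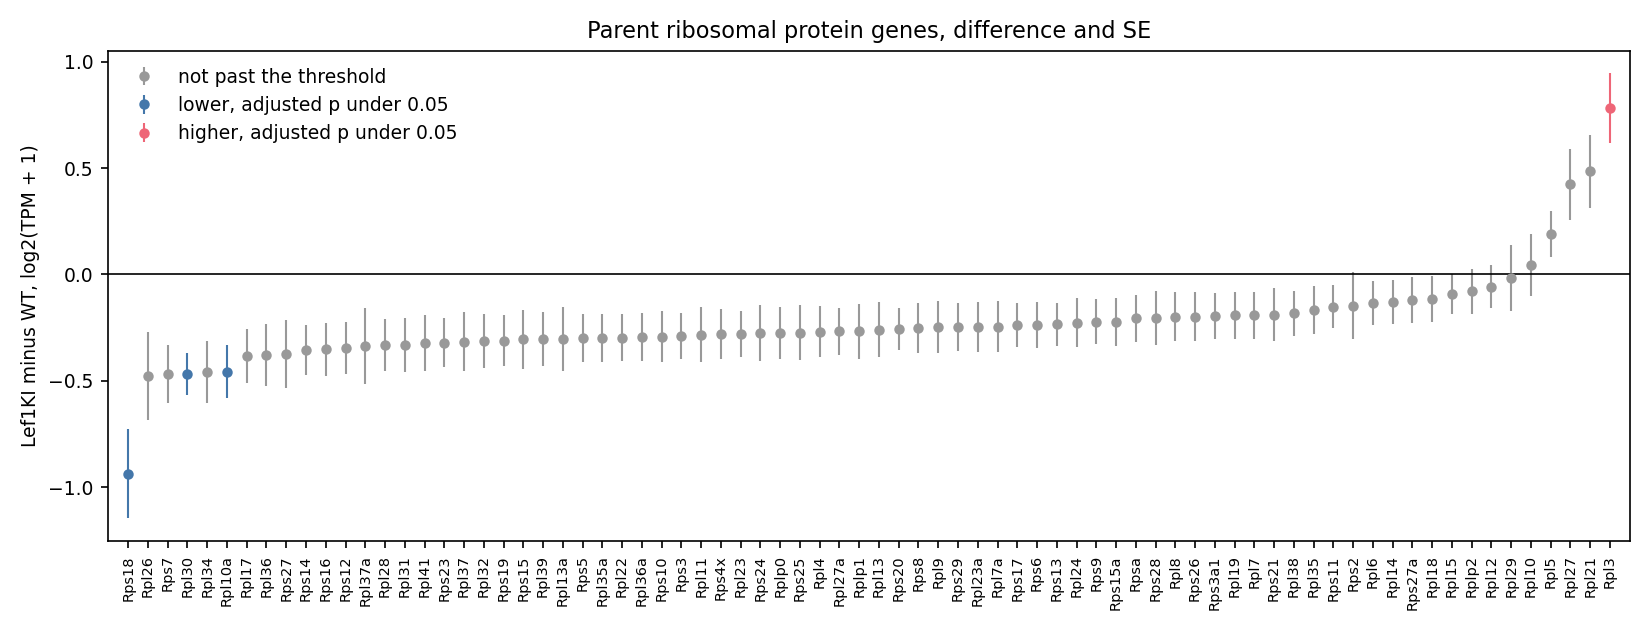
Difference between Lef1KI and WT on the log2(TPM + 1) scale for the parent genes, sorted, with 1 of the 77 not drawn, with bars of 1 SE from limma. All but 5 (Rpl10, Rpl5, Rpl27, Rpl21 and Rpl3) lie below 0, the middle 50% of the genes between -0.31 and -0.19, while Rps18 at -0.94 and Rpl3 at 0.78 stand at the ends.

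Rpl5, which binds 5S ribosomal RNA, was among the 5 parents with a positive difference, at 38.4 ± 2.98 against 33.5 ± 2.84 TPM. Its copy without a differing base, Gm15500, a row outside the members, was at 2790 ± 207 against 3280 ± 232 TPM, and the sum of both at 2828 ± 206 against 3314 ± 235 TPM (-0.23, limma adjusted p 0.226). With every matched copy summed in, 76 of the 77 parent families had a negative difference.

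Within each group the libraries kept nearly the same order from gene to gene. Lef1KI A was the highest of its group in 61 of 77 parents and Lef1KI C the lowest in 62; WT A was the highest in 53 and WT D the lowest in 60. The order followed the libraries' median log2 value over all genes in reverse: from 3.76 in Lef1KI A to 3.97 in Lef1KI C, and from 3.58 in WT A to 3.84 in WT D. A library in which the middle gene was higher thus gave its ribosomal genes a smaller share, within both groups. Leaving out each library in turn, 71 or 72 of the 77 parents were negative, with a median between -0.31 and -0.21, and 71 of the 72 negative parents were so in all 9 fits.

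The 4 called parents each belong to a family with a copy among the members, as do 25 of the 77 parents. Rps18, a protein of the small subunit head, was at 1750, 3351, 3545, 3681 and 2939 TPM in Lef1KI A to E and at 6451, 5559, 5500 and 5184 TPM in WT A, B, E and D. Every Lef1KI library was lower (-0.94 ± 0.21, limma adjusted p 0.0202), and the lowest was Lef1KI A. The call was lost without WT A, WT B or WT E (adjusted p 0.0519 to 0.0588). Rpl30, a large subunit protein, was at 1428, 1305, 1230, 1226 and 1195 TPM against 1876, 1796, 1746 and 1639 TPM. The difference was -0.47 ± 0.10 (limma adjusted p 0.0153) with no overlap, and the call was lost without WT B (adjusted p 0.0605) or WT E (0.0536).

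Rpl3, a large subunit protein next to the peptidyl transferase centre, was the only parent that rose. It was at 2065, 2748, 2253, 2561 and 2597 TPM in Lef1KI and at 1376, 1484, 1050 and 1860 TPM in WT, so the groups did not overlap (0.78 ± 0.16, limma adjusted p 0.0148). The call was kept without any 1 library but was lost with median centring (0.62, adjusted p 0.0588) and with trimmed-mean scaling (0.61, 0.0646). Rpl10a, the protein of the large subunit's L1 stalk, was at 994 to 1417 TPM against 1630 to 1770 TPM and also passed (-0.46 ± 0.12, limma adjusted p 0.0463). When each library was left out in turn, its call was kept only without Lef1KI A and lost in the other 8 fits (adjusted p 0.0633 to 0.126).

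The largest differences among all 118 genes were in copies. Of the 33, 4 rose and 1 fell, where 6.73% and 1.24% of all genes did, and 26 had a negative difference (median -0.22). Of the 4 that rose, 3 (Gm10260, Gm11361 and Gm12191) are members because they were named with earlier results of these data known, so that count is not read against the share of all genes. Among the 36 rows outside the members that match a parent, 2 were called higher and 4 lower. Gm10260, annotated in M21 as protein coding, was at 2826, 1491, 658, 1110 and 1350 TPM in Lef1KI A to E, and at 0, 1.44, 0 and 0.32 TPM in WT A, B, E and D (9.96 ± 0.39, limma adjusted p 2.18e-07). Gm11361 was at 976, 525, 236, 387 and 455 TPM in Lef1KI and at 0, 0.47, 1.57 and 0.35 TPM in WT (8.27 ± 0.37, adjusted p 5.6e-07). Both copies were thus near 0 in every WT library and highest in Lef1KI A, the library where their parent Rps18 was lowest. Rps18-ps3 rose from 0.468 ± 0.625 to 15.5 ± 12.7 TPM (3.25 ± 0.50, adjusted p 0.00316).

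Gm12191, the copy of Rpl30, was at 1400, 1170, 363, 1081 and 827 TPM in Lef1KI A to E and at 5.23, 1.15, 4.70 and 2.51 TPM in WT A, B, E and D (7.77 ± 0.41, limma adjusted p 2.31e-06). Every Lef1KI library lay far above every WT library, the lowest being Lef1KI C. Rpl3-ps1 moved the opposite way: it was at 786, 170, 249, 278 and 14.02 TPM in Lef1KI and at 2022, 1616, 2107 and 1023 TPM in WT. It fell (-3.26 ± 0.89, limma adjusted p 0.0477), a call kept without Lef1KI A or without Lef1KI E and lost in the other 7 of 9 such fits (adjusted p 0.0711 to 0.12). The 4 rises were kept in all 9 of those fits. For Gm10260, Gm11361 and Gm12191, named as members with earlier results of these data known, this is not read as independent support.

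Gm10260 lies on the opposite strand from Gm26619, a long noncoding RNA gene that overlaps it (chr13:97751112-97760965, plus strand) and was also higher, at 263 ± 138 against 3.41 ± 1.08 TPM without overlap (5.78 ± 0.34, limma adjusted p 5.65e-06). The library kit marks strand, but the strand setting of the authors' quantification is not stated in the sources used here, so reads of the 2 models may not be told apart.

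The share of a family's TPM that its copies held differed widely between the groups in 3 families. Copies held 68.7%, 37.8%, 20.2%, 29.1% and 38.1% of the Rps18 family's TPM in Lef1KI A to E, and between 0.0205% and 0.0344% in WT. The copy held 22.8% to 49.5% of the Rpl30 family in Lef1KI and 0.064% to 0.278% in WT. In the Rpl3 family the order was the other way, with 0.537% to 27.6% in Lef1KI and 35.5% to 66.8% in WT. Those 3 shares did not overlap between the groups. Nor did those of Rpl10a (57.2% to 60.8% in Lef1KI, 51.9% to 53.1% in WT), Rpl15 (51.0% to 53.7%, 54.7% to 57.0%), Rpl27 and Rps12, but these lay within a few percent of each other.

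**Figure D3:**
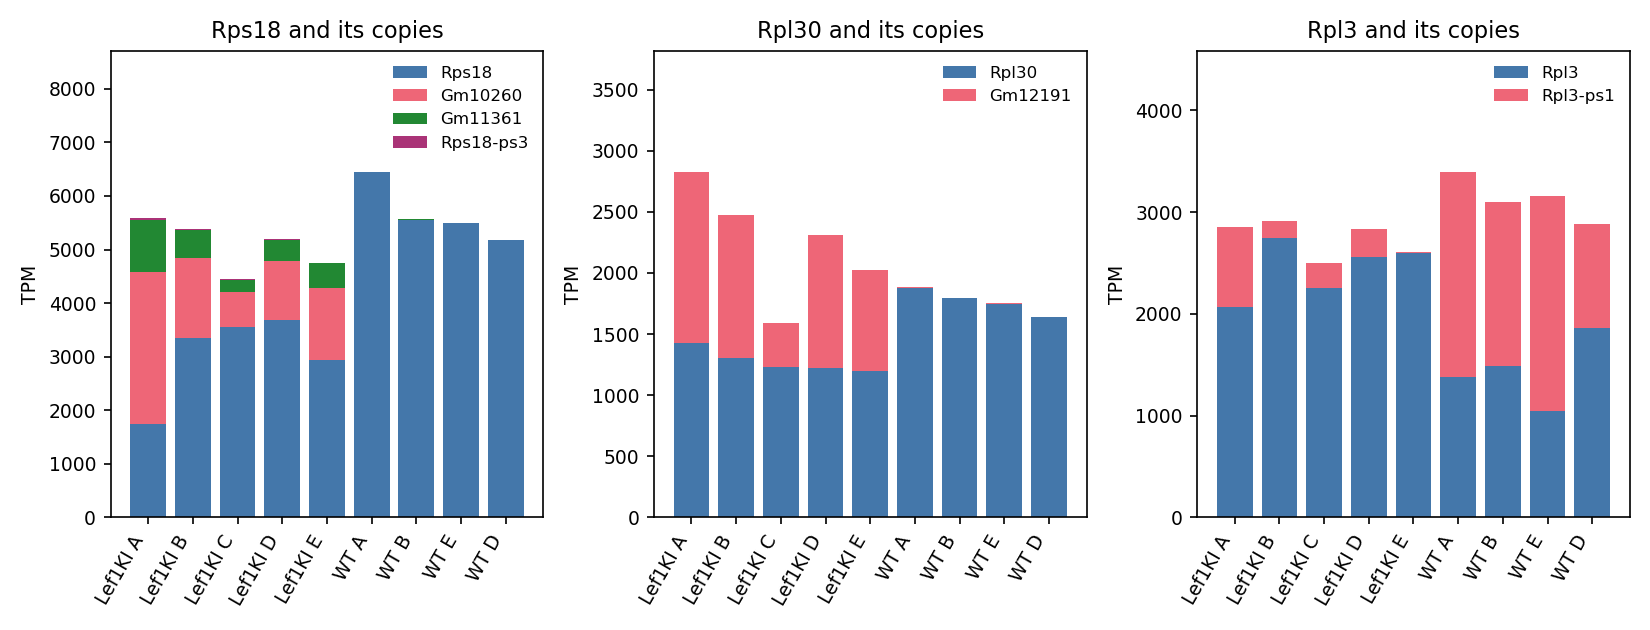
TPM of Rps18, Rpl30 and Rpl3 and of their copies in each library, stacked so that the height of a bar is the family's sum. Copies appear in the Lef1KI bars of the Rps18 and Rpl30 families and are nearly absent from the WT bars, while Rpl3-ps1 takes 35.5% to 66.8% of the WT bars and at most 27.6% of the Lef1KI bars.

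Summed over the family, the calls were gone. The Rps18 family was at 5588, 5388, 4445, 5188 and 4748 TPM in Lef1KI A to E and at 6453, 5561, 5502 and 5185 TPM in WT A, B, E and D, so that the groups overlapped (-0.16 ± 0.13, limma adjusted p 0.443). The Rpl3 family was at 2744 ± 178 against 3134 ± 212 TPM (-0.19 ± 0.11, adjusted p 0.295), a direction opposite to that of Rpl3 alone. The Rpl30 family also changed sign, to 2245 ± 467 against 1768 ± 100 TPM (0.32 ± 0.16, adjusted p 0.248), with Lef1KI C (1593 TPM) below every WT library and the other Lef1KI libraries above them. The Rpl10a family was at 3009 ± 364 against 3604 ± 149 TPM and still did not overlap (-0.27 ± 0.12, adjusted p 0.209).

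Of the 84 family sums, 0 passed the threshold in limma, where 7.91% of the rows of that table did, 6.71% higher and 1.20% lower. At an unadjusted p under 0.05 in limma, 33 were lower and 1 higher, where 5.05% and 18.7% of all single genes were. Of the 84, 30 lay without overlap on the low side, where 1.89% of all single genes did. The sums had a median difference of -0.25, and 77 of 84 were negative. The exceptions to a count of 0 were few: without Lef1KI A, 4 sums passed as lower, among them Rpl17, Rpl36 and Rps19 (adjusted p 0.0411 to 0.0474), without WT A Rpl21 passed as higher (0.66, adjusted p 0.0178), and with either scaling Rps7, summed without Gm6472, passed as lower (-0.63, adjusted p 0.0269, and -0.64, 0.0245).

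**Figure D4:**
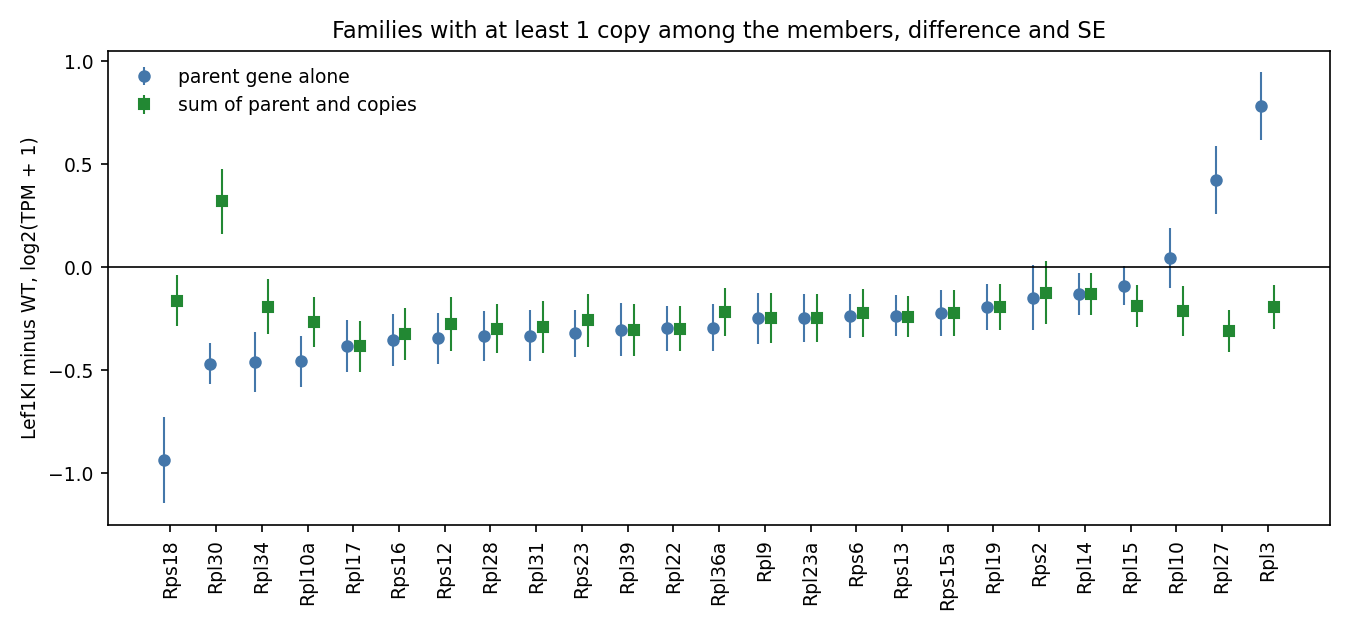
Difference between Lef1KI and WT on the log2(TPM + 1) scale for the 25 families with a copy among the members, for the parent gene alone and for the sum of the parent and its copies, with bars of 1 SE from limma. The parents reach from -0.94 (Rps18) to 0.78 (Rpl3), while all sums except Rpl30 (0.32) lie between -0.38 and -0.12.

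In several families copies held much of the total in both groups. Rpl27-ps3 held nearly all of its family, with copies at 91.5% to 95.3% in Lef1KI and 95.7% to 96.7% in WT, and Rpl27 itself was at 141 ± 30.2 against 104 ± 18 TPM (0.42, limma adjusted p 0.157). The sum of that family was lower in every Lef1KI library (-0.31, adjusted p 0.0982), but with the matched row Gm11518 added the groups overlapped (-0.10, adjusted p 0.565). Copies likewise held 84.3% to 92.0% of the Rpl10 family, 57.5% to 61.3% of the Rps23 family, 50.8% to 56.1% of the Rpl31 family and 36.0% to 42.7% of the Rps12 family over the 9 libraries. Rpl34-ps1 held 33.3% to 61.5% of its family in Lef1KI and 15.8% to 48.9% in WT: it was lowest in WT A (367 TPM), where Rpl34 was highest (1958 TPM), and Rpl34 was lowest in Lef1KI E (911 TPM), where the copy stood at 1453 TPM.

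Copies identical to their parent over the aligned stretch had the highest median level. It was 1802 TPM, where that of copies with 1 to 5 differing bases was 4.02 TPM and that of copies with more was 11.4 TPM. All 11 copies without a differing base in the stretch that aligned to the parent were above 100 TPM on average, between 643 and 4235 TPM. Their differences lay between -0.35 and -0.09, around the median of all 77 parents (-0.27), with 0 past the threshold by limma. They are Rpl10-ps3 (aligned over 740 of its 768 bases), Rpl10a-ps1, Rpl15-ps3, Rpl27-ps3, Rpl28-ps1, Rpl31-ps8, Rpl36a-ps2, Rps12-ps3, Rps16-ps2, Rps23-ps1 and Rps6-ps4. Among their own parents, Rpl10 (0.044), Rpl27 (0.42) and Rpl10a (-0.46) lay outside that range. Of the 11, Rpl15-ps3 (1202 ± 97.1 against 1447 ± 63.2 TPM, adjusted p 0.133) and Rpl27-ps3 (2145 ± 184 against 2727 ± 140 TPM, adjusted p 0.0752) were without overlap. No read can separate such a copy from its parent within the aligned stretch, so these rows are uncertain one by one and only their family sums can be read.

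Of the 16 copies with 1 to 5 differing bases, 4 were above 100 TPM on average (Gm10260, Gm12191, Rpl3-ps1 and Rpl34-ps1), and 3 of those were called, together with Rps18-ps3. The 12 others included Rps13-ps1 (27.3 ± 18.8 against 39.7 ± 26.8 TPM), Rps12-ps9 (12.6 ± 7.48 against 14.4 ± 4.68 TPM) and Rpl19-ps11 (3.39 ± 0.991 against 5.57 ± 1.63 TPM), none of which was called. Of the 6 with more than 5 differing bases, Gm11361 was the only one above 100 TPM on average. Rps2-ps10, with 6, was at 518 TPM in Lef1KI C and at 8.25 to 16.7 TPM in the other 8 libraries. Gm10260, Gm11361 and Gm12191 were named as members with earlier results known, so the calls by class are not read against the share of all genes. Among the matched rows outside the members, 1 of 7 without a differing base was called (Gm11518), 4 of 12 with 1 to 5 and 1 of 17 with more. Of all genes, 7.97% were called. With so few rows, these counts are not read as a dependence on the number of differing bases.

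**Figure D5:**
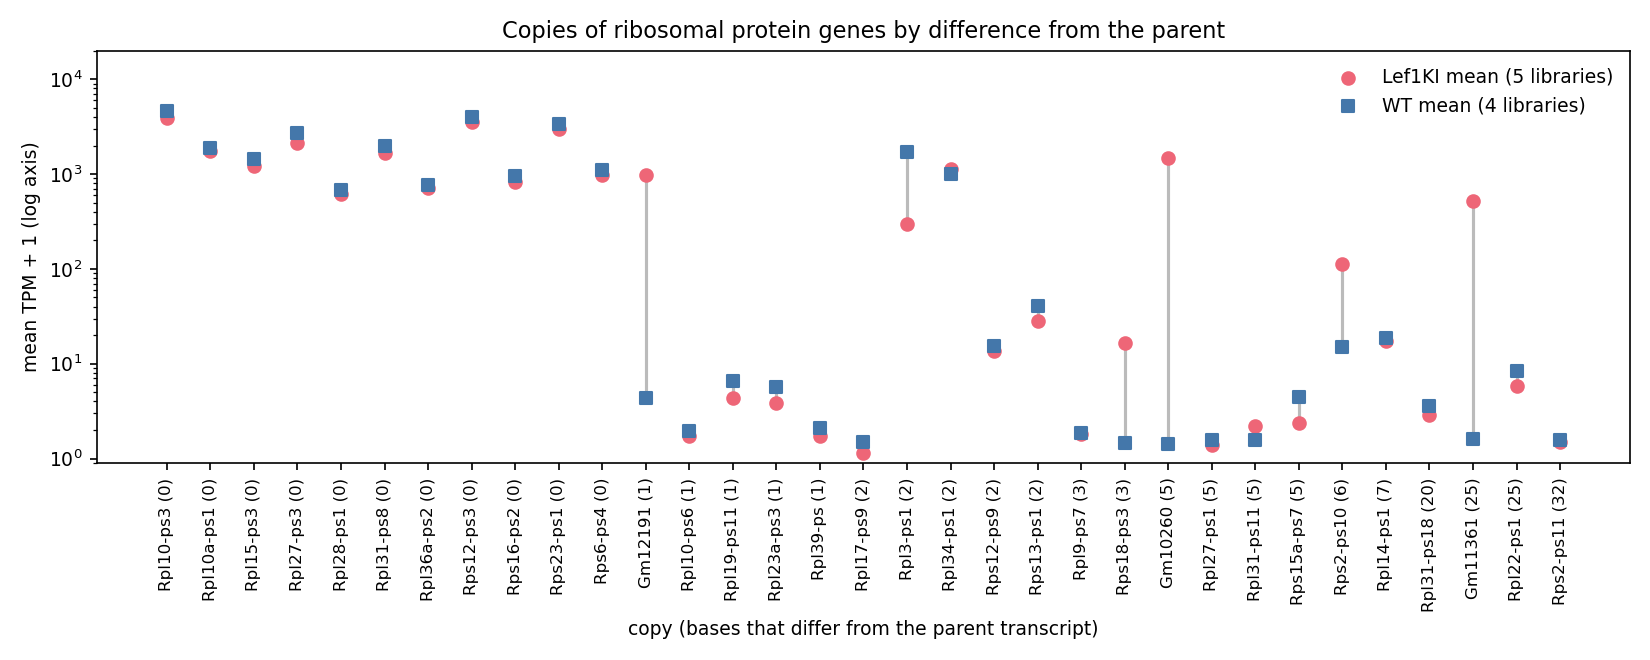
Mean TPM + 1, on a log axis, of each of the 33 copies in Lef1KI (circles) and WT (squares), ordered by the number of bases that differ from the parent transcript within the aligned stretch, given in brackets. The 11 copies at the left with 0 differing bases all lie between 643 and 4235 TPM over all libraries with near-equal groups, while long lines between the groups appear among copies with 1 or more differing bases. Gm10260, Gm11361 and Gm12191, among those with long lines, were named as members with earlier results known.

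The paralogs did not change together. Of the 7, 4 had a positive and 3 a negative difference, and 0 passed the threshold in limma (0 at an unadjusted p under 0.05). Rps27l, a p53 target and close relative of Rps27, was at 573 ± 61.4 against 506 ± 81.5 TPM (0.19, limma adjusted p 0.384), and Rpl22l1, a relative of Rpl22 with a role in splicing, at 470 ± 78.1 against 430 ± 71.4 TPM (0.12, adjusted p 0.632). Rpl36al was almost equal, at 793 ± 40.8 against 794 ± 36.8 TPM. Rps4l (67.9 ± 26.1 against 49.8 ± 17.6 TPM), Rpl7l1 (42.3 ± 5.75 against 37.7 ± 6.01 TPM), Rpl37rt (744 ± 52.3 against 815 ± 26.2 TPM) and Rps27rt (19.8 ± 7.59 against 27.4 ± 9.32 TPM) all overlapped. The median of the 7 was 0.12, where that of all genes was 0.14.

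The same matching found 36 rows outside the members, and these were added to the sums as an alternative chosen after the data were seen. With them, 1 family passed, and it was lower. Rpl21 alone was at 1155, 1011, 881, 1026 and 925 TPM in Lef1KI A to E against 1019, 730, 535 and 644 TPM in WT A, B, E and D, higher in value without passing (0.48 ± 0.17, limma adjusted p 0.118). Its copy Gm10163 was at 119 ± 29.4 against 936 ± 364 TPM (-2.88 ± 0.32, adjusted p 0.000765). The copies Gm10240 and Gm13370, with identical values, were listed at 0 in every Lef1KI library and at 11.5 to 129 TPM in WT. All 3 copies share T336C and T432C relative to Rpl21. The sum of the family was 1119 ± 131 against 1767 ± 237 TPM (-0.66 ± 0.13, adjusted p 0.0107), with no overlap and a sign opposite to that of Rpl21 alone.

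Rplp0, the protein that anchors the ribosomal stalk, had the largest shift of a copy among these rows. Its copy Gm8730 was at 0.73, 297, 0.67, 2.25 and 1.41 TPM in Lef1KI A to E and at 669 to 827 TPM in WT (limma adjusted p 0.00836), so that Lef1KI B stood apart from the other Lef1KI libraries. With its copies the Rplp0 family was at 4703 ± 398 against 6347 ± 538 TPM, without overlap (-0.43 ± 0.12, adjusted p 0.0508). Rpl26, a large subunit protein at the exit tunnel, had 1 low library, Lef1KI C at 2161 TPM against 3858 to 4781 TPM in the other 4. Its copy Gm15772 was at 2340 TPM in that library, at 650 TPM in Lef1KI B and between 0.91 and 7.37 TPM elsewhere, and the sum in Lef1KI C was 4501 TPM, within the range of the other Lef1KI libraries (3962 to 4782 TPM).

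Other genes of the translation machinery were counted from lists. Of 3 ribosomal proteins whose symbols the pattern does not take, all had a negative difference and 0 passed in limma (1 at an unadjusted p under 0.05), among them Fau, made as a fusion with a ubiquitin-like protein (603 ± 76.9 against 686 ± 47.8 TPM), and Gnb2l1, which encodes the scaffold RACK1 (2439 ± 206 against 2909 ± 184 TPM). Of 23 translation factors and other genes with 5' terminal oligopyrimidine transcripts, 12 were negative and 11 positive (median -0.05, against 0.14 for all genes). At an unadjusted p under 0.05 in limma there were 8, 6 of them lower, where 5.05% of all genes were lower. The summed TPM of the list was lower without overlap, at 32106.1 to 36669.5 in Lef1KI and 36805.5 to 40067.3 in WT, though 0 single genes were. After adjustment 1 passed, where 7.97% of all genes did. It was Vim, an intermediate filament gene, at 217 ± 87.6 against 72.2 ± 11.2 TPM (1.496, limma adjusted p 0.00518). The elongation factor gene Eef1a1, the most abundant of the list and the largest part of its sum, was at 15466 ± 1132 against 17328 ± 901 TPM. It overlapped between the groups (limma adjusted p 0.477).

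Genes for ribosome assembly and ribosomal RNA synthesis were mostly higher in value, as were all genes. Of the 69 measured, 62 had a positive difference (median 0.27), where 69.5% of all genes did (median 0.14), and 0 passed in limma. At an unadjusted p under 0.05 there were 16, 1 of them lower, where 23.7% of all genes passed that level in either direction and 18.7% as higher. Nucleolin (Ncl) was at 431 ± 135 against 295 ± 28.3 TPM (adjusted p 0.2) and Myc at 229 ± 17.7 against 250 ± 25.1 TPM (adjusted p 0.486). Of 18 regulators of translation and ribosome number, 16 were positive (median 0.16) and 0 passed (4 at an unadjusted p under 0.05), counts to be read against the same shares of all genes. Without Lef1KI A, 6 assembly genes and 3 regulators passed as higher. In that fit the median of all genes was 0.176. The share of all genes called in it is not given here, so these counts are not read as a result about the lists.

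Markers of some other cell types differed between the groups. Of 8 fibroblast markers 7 were called higher, where 6.73% of all genes were. The 8 summed to 273 to 919 TPM in Lef1KI against 66.0 to 124 TPM in WT. All 4 endothelial markers measured were called higher, with a sum of 10.0 to 34.6 against 1.0 to 3.6 TPM and each under 1 TPM on average in WT. Of 3 leukocyte markers 2 were called higher, and 1 was lower in value (-1.18, unadjusted p under 0.05 in limma) without being called. Their summed level of 58.1 to 244 against 111 to 259 TPM overlapped. The 8 basal and myoepithelial markers measured summed to 19936 to 23931 against 15217 to 22076 TPM with 0 called in limma (2 at an unadjusted p under 0.05), and the 2 luminal markers to 68.3 to 377 against 137 to 364 TPM with 0 called (0 at an unadjusted p under 0.05). The part of these cell types in the ribosomal protein differences was not tested.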

How the data were processed

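The deposited table holds log2(TPM + 1) values per gene, which the authors made with RSEM on mm10, per the submitters' processing notes; its annotation, RSEM version, aligner and strand setting are not stated in the sources used here. RSEM divides a read that fits several transcripts by estimated probability. The authors kept genes by a filter at 3 SD, per the file's name, and genes outside the table are not analysed here. TPM were recovered as the power of 2 minus the pseudocount of 1, and hold 99.6% to 99.84% of 1000000 per library.

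Differences were fitted with limma 3.58.1 (R 4.3.3, intensity trend, group only, all 13336 genes and 9 libraries, two-sided), with Benjamini-Hochberg adjustment over all genes and a threshold of 0.05. For family sums the members of a family were replaced by 1 row, log2(summed TPM + 1), giving 13303 rows; paralogs stayed apart. The fit was tested on simulated data. Copies were aligned to parent transcripts of GENCODE M21 with BLAST 2.17.0; all 118 IDs were found and 117 symbols were equal.

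Members and lists were chosen with earlier results of these data known. Named were all copies with their parents and family sums, called or extreme parents and paralogs, the 3 highest parents and the extremes of each list; other genes named as markers or examples were chosen after their values were seen. Single values of 2 genes are not reported here, though counts include them. Alternatives were median centring, trimmed-mean scaling, pseudocounts of 0.1 and 5, a minimum mean of 1 TPM, no trend, a robust prior, each library left out, column letter as a block, and other family definitions.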

Additional observations from a re-analysis of the deposited data

Results flagged for a closer look

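In all, 10 values among the members lay far from the other libraries of their group by Dixon's test at 95%, 5.05% of the groups tested (where chance flags about 1 in 20). Of these, 3 are in Lef1KI C: Rps2-ps10 at 517.64 TPM where the other 4 Lef1KI libraries were at 8.25 to 12.59 TPM, Rpl26 at 2160.61 TPM against 3858 to 4781 TPM, and Rps6-ps4 at 759.52 TPM against 979 to 1079 TPM. In Lef1KI E, Rpl34 was at 911.24 TPM against 1225 to 1369 TPM, and Rpl31-ps18 at 0.39 TPM against 1.73 to 2.54 TPM. WT A was high for Rplp1 (12691.88 TPM against 10699 to 10848 TPM) and for Rps12 (7502.34 TPM against 6281 to 6471 TPM). WT D was low for Rpl26 (4902.69 TPM against 5173 to 5186 TPM), WT E for Rpl19-ps11 (3.15 TPM against 6.20 to 6.67 TPM) and WT B for Rpl39-ps (0.3 TPM against 1.28 to 1.39 TPM).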

How the results depend on the processing

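Depth cannot be judged from TPM, and with 5 and 4 libraries most calls of single parents sat near the threshold. Of the counts and sums, 276 values under an alternative stayed within 1.5 times or 1 SD of the reported one and 35 did not. The number of parents higher (1 as reported) was 0 with median centring, trimmed-mean scaling and the letter block, and 1 to 2 leaving out a library; the number lower (3) was 0 with the block and 0 to 8 leaving out a library. The number of copies lower (1) was 0 with a pseudocount of 5, without the trend and with the block, 2 with the robust prior and 0 to 2 leaving out a library. Family sums (0 and 0) gave 1 higher and 3 lower from parent genes only, 1 lower with either scaling or with all matched copies, and 0 to 1 higher and 0 to 4 lower leaving out a library. Leaving out a library gave 0 to 1 lower among the oligopyrimidine genes, 0 to 6 higher among assembly genes and 0 to 3 higher among regulators. The share of all genes called in those fits is not given here. The log2 ratio of summed TPM (parents -0.26, all -0.24) was -0.42 and -0.40 with median centring (parents, then all) and -0.43 and -0.40 with trimmed-mean scaling.

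Signs turned for small differences. Rpl10 (0.044) was -0.12 with median centring, -0.13 with trimmed-mean scaling, -0.02 with the block, and -0.047 to 0.147 leaving out a library. Rpl22l1 (0.12) was -0.035 and -0.048 with the 2 scalings, and Rpl7l1 (0.16) -0.005 with trimmed-mean scaling. Leaving out a library, the range was -0.13 to 0.536 for Rpl34-ps1, -0.027 to 0.025 for Rpl36al, -0.143 to 0.096 for Rpl9-ps7, -0.155 to 0.011 for Rps2-ps11, -0.31 to 1.144 for Rps2-ps10 and -0.208 to 0.012 for the Rps2 sum; Rps2-ps10 (0.78) was -0.31 also with the block, in which Lef1KI C has no partner and carries no weight. From parent genes only, the Rpl10 sum became 0.044, Rpl27 0.42, Rpl3 0.78 and Rpl30 -0.47. The causes were not tested.

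No label says whether the column letters pair the libraries. Over all genes, deviations from the group mean correlated at -0.26, 0.02, -0.15 and 0.26 for A, B, E and D. Between libraries of different letters they correlated at -0.21 to 0.224. Such correlations cannot show whether libraries of the same letter share animals or a batch, so pairing is not known. With the letter as a replicate block, 0 parents were called, 4 copies were higher and 0 lower.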

Other observations

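Among the matched rows, 2 not described above were called higher. Gm11518, a copy of Rpl27 without a differing base, was at 597 ± 80.6 against 258 ± 83.7 TPM with no overlap (1.28 ± 0.23, limma adjusted p 0.00745), while the identical member copy Rpl27-ps3 was lower in value. With Gm11518 added, the Rpl27 family overlapped between the groups (2884 ± 101 against 3089 ± 199 TPM, limma adjusted p 0.565). Gm10288, a copy of Rpl11 with the single difference G86A, was at 37.9 to 126 TPM in Lef1KI and at 44.5, 0, 0 and 0 TPM in WT A, B, E and D (limma adjusted p 0.014), so that WT A lay inside the Lef1KI range.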
